A study of Xenopus laevis with 60 samples.

Results

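Genes that Xenopus laevis embryos transcribe by the time of stage 9 when no new protein can be made were measured. For this, 2 libraries of cycloheximide-treated embryos were set against 2 libraries of triptolide-treated embryos of the same day, 4 of the 60 libraries of the series. All embryos were wild type, of the strain Xla.NXR-WTNXR, and came from pooled eggs of 2 mothers, here called collection B. Triptolide, an inhibitor of RNA polymerase II transcription, was given at 20 µM at stage 1, and cycloheximide, an inhibitor of translation, at 500 µg/mL at the beginning of stage 8. Embryos of both treatments were frozen when untreated embryos of the batch were halfway through stage 9, 8 hours after fertilization, with 2 whole embryos per sample. The paper states that embryos given cycloheximide at stage 8 are held back from reaching stage 9. They therefore also differ from control embryos in developmental progress. The 2 libraries of DMSO-treated embryos of collection B are given beside them, since DMSO carried both drugs. The 4 libraries of embryos treated with the same dose of cycloheximide and injected with 80 ng of a control morpholino against GFP, in collections C and D, and 2 triptolide libraries of collection A serve as further libraries. Replicates of a collection were separate sets of embryos of 1 day. The p-values rest on a spread estimated over all 53 fitted libraries, not on these 4 alone. They measure how such sets vary over many conditions and say nothing of other mothers. Values come from whole embryos, in which fewer cells of a type and less RNA per cell cannot be told apart.

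The early embryo is transcriptionally quiet and lives on RNA and protein laid down in the egg. At genome activation, transcription factors made from maternal RNA switch on a first wave of genes, and the proteins of the first wave then switch on others. With translation blocked before stage 9, a transcript that appears is taken to depend on factors already present, so the difference from triptolide asks which genes maternal factors can switch on. Because triptolide was given from stage 1 and cycloheximide from stage 8, the drugs also differ in when they acted, and transcription before stage 8 cannot be told apart from transcription after it.

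Read pairs counted in exons came to 19805059 and 16472357 with cycloheximide, 23902505 and 25358689 with triptolide, and 16441548 and 18580491 with DMSO. Intron read pairs, which mark RNA that has not been spliced, made up 2.09% and 1.70% of all counts with cycloheximide, 0.423% and 0.505% with triptolide, and 5.29% and 5.46% with DMSO. The 2 cycloheximide libraries differed from each other more than other pairs did. Over 13529 genes above 10 TPM, a transcript share scaled to 1e6, the log2 ratio of the 2 libraries had an SD of 0.318 with cycloheximide, 0.212 with triptolide and 0.133 with DMSO. The summed level of the 13 genes of the mitochondrial genome was 30344 and 13323 TPM with cycloheximide, 20796 and 27435 TPM with triptolide, and 25293 and 26581 TPM with DMSO, and its part in other differences was not tested beyond a fit without these genes, given at the end. Of 19 markers of transcription in the blastula, 17 and 19 had counts with cycloheximide, with sums of 118 and 121 TPM, against sums of 0.766 and 1.44 TPM with triptolide and of 1148 and 1147 TPM with DMSO. All 14 maternal egg markers were detected in all 6 libraries and none was called, with sums of 2829 to 2953 TPM with triptolide and 3045 to 3664 TPM with cycloheximide. Of the markers of red blood cells, testis and ovarian follicle, 4, 12 and 7 were tested and none was called, and they summed to 99.5 to 123, 54.5 to 69.5 and 104 to 110 TPM with cycloheximide, and to 104 to 112, 55.5 to 67.1 and 107 to 116 TPM with triptolide.

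Cycloheximide-treated embryos held many more transcripts above the triptolide level than below it. A call needed a log2 difference of 1.5 or more and an adjusted p under 0.05 (edgeR, quasi-likelihood, Benjamini-Hochberg), in the exon or the intron counts of a gene. Of 27602 genes tested, 3929 were higher with cycloheximide (14.2%) and 137 were lower (0.496%). In exons alone, 1035 genes were higher (3.75%) and 104 lower (0.377%), and in introns, 3355 of 9916 were higher (33.8%) and 36 lower (0.363%). The median exon difference over all genes was 0.00 on the log2 scale and the median intron difference was 1.31. The paper took out of its introns the regions that reads covered in embryos before genome activation. An intron was also tested only if it had enough counts in some library. The excess of higher over lower introns, and the 1.31, can follow in part from these rules. The part of the regions taken out was not tested, and a fit without the count filter is given at the end. DMSO against the same triptolide libraries called 8218 genes higher (29.8%) and 52 lower (0.188%), and in exons 1712 higher (6.2%) and 46 lower (0.167%). That comparison shares the triptolide libraries with this one, so the values are set side by side and no overlap was taken.

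The genes higher in exons and those higher in introns alone are given here with their level before genome activation. The stage 5 libraries come from other embryos, with no collection recorded, and the paper assigns them to an earlier study. In that study, transcripts of COX2 and COX3, genes of the mitochondrial genome, were taken out before sequencing. TPM are shares of a total, so stage 5 levels can be shifted against collection B, which was not tested. Of the 1035 genes higher in exons, 933 stood under 1 TPM at stage 5 and 102 at or above it (9.86%). Of the 2894 genes higher in introns and not in exons, 2629 stood at 1 TPM or more at stage 5 (90.8%), against 67.8% of all genes tested. An exon call needs a rise above the maternal RNA left with triptolide, which a gene with much of it can hardly reach. The 9.86% and the 90.8% follow in part from this rule. The 67.8% also covers genes without an intron entry, so nothing is read from these shares. In those 2894 genes the median exon difference was -0.03 on the log2 scale. Both entries were higher in 461 genes. Of the 567 genes higher in exons that also had an intron entry, 106 were not called in introns. Exon levels of the 1035 genes higher in exons were low, and this does not cover the genes called in introns alone. The median of the 1035 genes was 1.17 TPM with cycloheximide, 161 of them reached 5 TPM, 28 reached 20 TPM, and 398 were at 0 in both triptolide libraries. Stage 8 libraries, which come from other embryos, had under 1 TPM in both libraries for 874 of them.

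**Figure D1:**
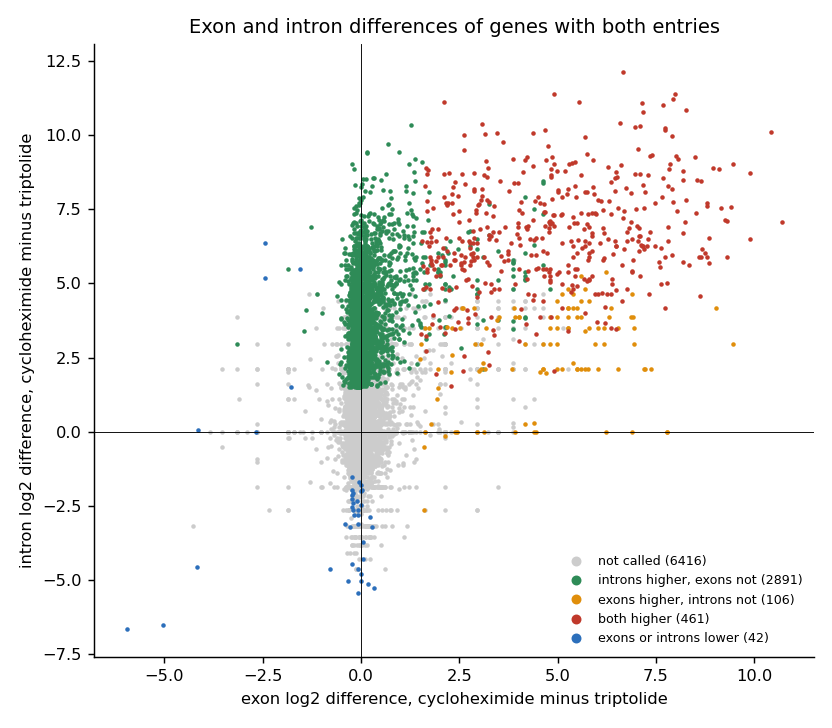
Exon (horizontal) and intron (vertical) log2 differences, cycloheximide minus triptolide, of the 9916 genes with both entries, each point a gene, colored by its call. The 461 genes called higher in both lie to the upper right, and genes higher in introns alone form a column at an exon difference near 0. Genes with few counts line up at fixed values.

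The largest exon rises were in genes of growth arrest, Notch targets and transcription factors of early fates. gadd45g.L, which encodes a growth arrest and DNA damage inducible protein, stood at 31.3 and 27.9 TPM with cycloheximide, at 0 in both triptolide libraries and at 17.1 and 12.3 TPM with DMSO. Against a floor of 3 counts per triptolide library it was at least 117-fold higher (adjusted p = 7.5e-22, edgeR's quasi-likelihood test). Its homeolog gadd45g.S stood at 32.9 and 30.2 TPM against 0 and 0.063 TPM, which is a log2 difference of 9.31 ± 0.424 (SE, n = 2 per group; adjusted p = 1.09e-24, edgeR). Both copies were higher with cycloheximide than in either DMSO library. eomes.L, a T-box factor of mesoderm and endoderm, stood at 10.8 and 11.2 TPM against 0 and 0, at least 96.3-fold higher (adjusted p = 2.49e-18, edgeR), with 17 and 21.1 TPM with DMSO.

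Several of the largest rises reached levels far above those of embryos that could translate. hes3.L, a Hairy and Enhancer of split repressor, stood at 21.0 and 22.4 TPM with cycloheximide, 0 and 0 with triptolide, and 1.1 and 0.704 TPM with DMSO. It was at least 67.3-fold higher than with triptolide (adjusted p = 2.35e-19, edgeR). neurog3.S, a proneural bHLH factor, stood at 8.72 and 9.46 TPM against 0 and 0 with triptolide and 1.67 and 0.332 TPM with DMSO. mcidas.L, a regulator of multiciliated cells, stood at 5.21 and 4.97 TPM with cycloheximide and was at 0 in both triptolide and both DMSO libraries. All 3 had libraries that did not overlap with DMSO, on the high side.

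Other large rises stayed under the level with DMSO. foxi4.2.L, a forkhead factor of the ectoderm, stood at 12.2 and 13 TPM with cycloheximide, at 0 with triptolide and at 64.5 and 71.3 TPM with DMSO. btg5.2.S, of the BTG antiproliferative family, stood at 11.3 and 17.2 TPM, at 0 and 0, and at 48.1 and 47.2 TPM. id3.L, an inhibitor of bHLH factors and a target of BMP signals, stood at 17.5 and 14.3 TPM with cycloheximide, 0 and 0.045 TPM with triptolide and 34.1 and 31.5 TPM with DMSO. cdc25b.L, a phosphatase that activates cyclin-dependent kinases, stood at 14.4 and 15.8 TPM against 0.059 and 0 TPM, which is a log2 difference of 8.65 ± 0.378 (SE; adjusted p = 6.89e-25, edgeR). With DMSO it stood only a little higher, at 18.4 and 18.0 TPM. Further members of the 15 largest were hes5.8.L, hes5.6.S and hes5.5.S, of the Notch-responsive hes5 cluster, and rasd1.L, a small GTPase. Their mean cycloheximide levels were 104%, 175%, 238% and 60.6% of DMSO. The fitted log2 differences of the 15 ran from 8.65 to 10.70, but 12 of them had no count in either triptolide library and their fitted size depends on a prior count. The rest of the 15 stood at 0.063 TPM or less in each triptolide library, so their sizes rest on few counts. Of the 15, both cycloheximide libraries lay above both DMSO libraries in 8 genes and below in 6, beside 40.3% and 11.6% of all genes tested. The 15 were chosen for being high with cycloheximide, so nothing is read from these counts.

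**Figure D2:**
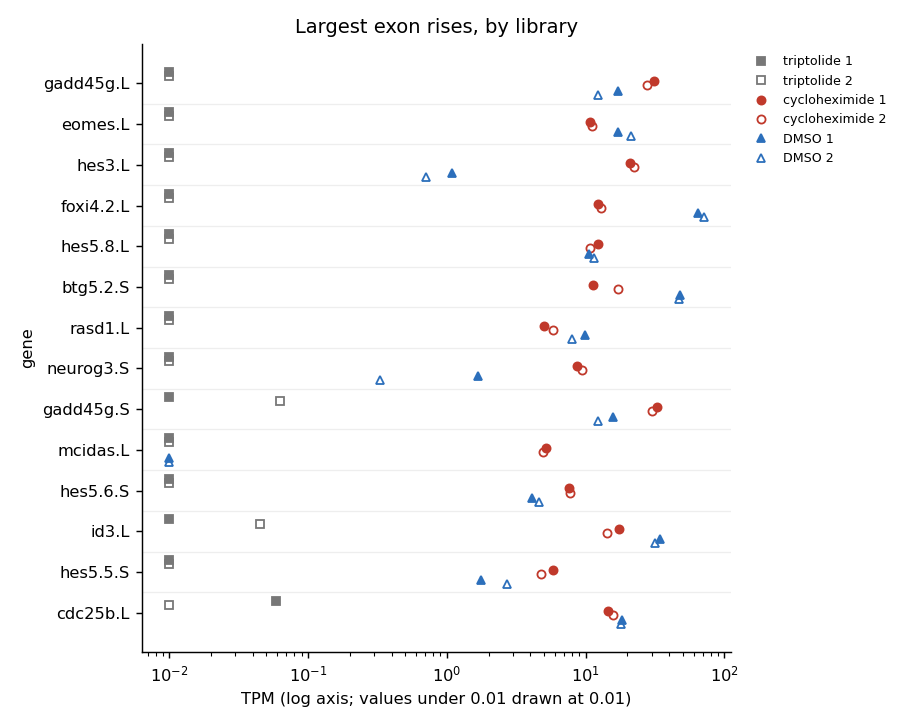
TPM (log axis, values under 0.01 drawn at 0.01) of 14 of the 15 genes with the largest exon rises among those with a symbol and at least 5 TPM with cycloheximide. Each marker is 1 library: gray squares triptolide, red circles cycloheximide, blue triangles DMSO, filled for replicate 1 and open for replicate 2. Triptolide libraries lie at or under 0.063 TPM and cycloheximide libraries between 4.76 and 32.9 TPM, while DMSO lies on either side of cycloheximide.

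Over the 1035 genes higher in exons, both cycloheximide libraries exceeded both DMSO libraries in 496 and lay below in 366, with 173 overlapping. Over all genes tested those shares were 40.3% above and 11.6% below. TPM are shares of a total, and a few abundant transcripts of the DMSO libraries are low with cycloheximide, the part of which in these shares was not tested. One of them, gene35084, carries no symbol and was chosen after its values were seen. It stood at 17443 and 16463 TPM with DMSO, 226 and 260 TPM with cycloheximide and 8.01 and 7.69 TPM with triptolide, a log2 difference of 4.80 ± 0.181 between the drugs (SE; adjusted p = 3.58e-26, edgeR). The genes were chosen for being high in the cycloheximide libraries, so nothing is read from the 496. Of the 3355 genes higher in introns, cycloheximide lay below DMSO in 2282 and above in 600, beside 74.6% and 7.12% of all 9916 introns.

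Genes of 4 developmental lists were called higher at 66.2% to 82.2%, against 14.2% of all genes. Of 45 tested members of a list of ventx repressors, BMP ligands and BMP feedback genes, 37 were higher, 24 of them in exons, and none was lower. Of 44 organizer genes and targets of maternal Wnt signals, 30 were higher, 22 in exons. Of 74 mesoderm and endoderm genes and nodal ligands, 49 were higher, 41 in exons, and of 89 ectoderm, epidermis and neural plate genes, 60 were higher, 45 in exons. Median exon differences of the 4 lists were 2.87, 3.17, 4.45 and 2.13 on the log2 scale. With genes absent from both triptolide libraries set at their lower bound, the medians were 2.00, 1.69, 2.37 and 1.41. Median intron differences were 5.49, 4.41, 4.63 and 5.12, against 1.31 for all introns. Of the members tested, 39, 39, 59 and 69 had an intron entry, a larger share than the 35.9% of all genes. The lists were drawn up with earlier results of these data known.

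**Figure D3:**
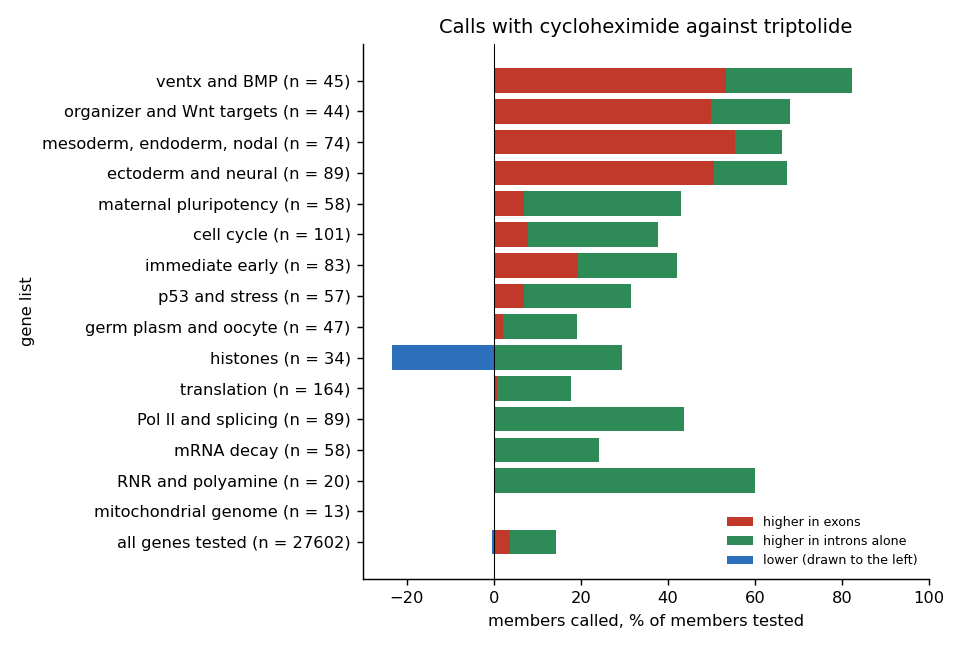
Share of the tested members of each gene list that were called with cycloheximide against triptolide (horizontal axis, %, n beside each list). Red bars are members higher in exons, green bars members higher in introns alone and blue bars to the left members that were lower. The 4 developmental lists reach 66.2% to 82.2% higher, all genes 14.2%, and histones alone extend far to the left, at 23.5%.

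Of the 24 genes of the ventx and BMP list higher in exons, cycloheximide lay above DMSO in 11, below in 12 and overlapping in 1. Over all 1035 genes higher in exons it lay above in 496, below in 366 and overlapping in 173. No split of the list is read from these counts, and single families are described below. The ventx genes encode homeobox repressors that act downstream of BMP signals, and 9 of 10 tested copies were higher in exons with cycloheximide. ventx2.1.S stood at 9.17 and 8.51 TPM with cycloheximide, 0 and 0.323 TPM with triptolide and 165 and 149 TPM with DMSO, a log2 difference from triptolide of 5.45 ± 0.508 (SE; adjusted p = 9.74e-13, edgeR). In all 9 copies both cycloheximide libraries lay below both DMSO libraries, with cycloheximide means of 0.849 to 8.84 TPM and DMSO means of 8.82 to 157 TPM. The msx1 and msx2 homeobox genes, also BMP-responsive, showed the other order. msx1.L stood at 9.12 and 12.6 TPM with cycloheximide, 0 and 0.061 TPM with triptolide and only 0.367 and 0.411 TPM with DMSO (log2 difference from triptolide 7.80 ± 0.511, SE; adjusted p = 2.11e-18, edgeR). All 4 msx, all 4 tbx2 and tbx3 and both gata2 copies were higher in exons than with triptolide and lay above both DMSO libraries. gata2.S, a zinc finger factor of ventral ectoderm and blood, stood at 6.78 and 8.36 TPM with cycloheximide, 0.060 and 0.028 TPM with triptolide and 0.468 and 0.457 TPM with DMSO. These families were singled out after their values were seen. In the same list, BMP feedback genes that the egg supplies were seen in introns. The introns of bambi.L, a decoy receptor of BMP, stood at 1.77 and 2.41 RPKM, intron counts per kilobase and 1e6 exon counts, against 0 and 0.007 RPKM, while its exons stood at 51.9 and 52.6 TPM against 39.0 and 36.3 TPM.

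The 41 mesoderm and endoderm genes higher in exons had a median cycloheximide level of 25.4% of DMSO. sox17b.1.S, an endoderm determinant, stood at 18.2 and 17.4 TPM with cycloheximide, 0.159 and 0.595 TPM with triptolide and 45.0 and 43.6 TPM with DMSO, a log2 difference from triptolide of 5.33 ± 0.368 (SE; adjusted p = 3.33e-17, edgeR). cxcr4.L, a chemokine receptor of migrating mesendoderm, stood at 17.6 and 17.5 TPM, 0.266 and 0.299 TPM, and 57.8 and 54.7 TPM in the same order. mix1.S, a homeobox target of nodal signals, stood at 3.91 and 4.14 TPM with cycloheximide, 0 and 0 with triptolide and 63.1 and 66.6 TPM with DMSO, at least 22.9-fold above triptolide (adjusted p = 7.59e-11, edgeR). Of 10 bix, mix1 and mixer copies, 8 were higher in exons and all 8 lay below DMSO, at a median of 5.05% of its level. Nodal genes encode the ligands that induce mesoderm. Of 11 tested copies 9 were higher, and nodal6.L stood at 5.92 and 2.51 TPM with cycloheximide, 0 and 0 with triptolide and 20.7 and 18.4 TPM with DMSO. Of the 41, both cycloheximide libraries lay below both DMSO libraries in 31, above in 4 and overlapping in 6, beside 366 below of the 1035. The gata4 to gata6 copies called in exons had a median of 94.4%. Both vegt copies, a maternal T-box factor upstream of endoderm, and both tbxt copies were not called, with vegt.L at 228 and 284 TPM against 266 and 221 TPM.

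Of the 22 organizer and Wnt target genes higher in exons, cycloheximide lay below DMSO in 13, above in 6 and overlapping in 3. Over all 1035 genes higher in exons, it lay below in 366, above in 496 and overlapping in 173. not.S, a homeobox gene of the notochord, stood at 12.6 and 19.7 TPM with cycloheximide, 0.258 and 0.424 TPM with triptolide and 54.4 and 61.0 TPM with DMSO (log2 difference from triptolide 5.33 ± 0.373, SE; adjusted p = 1.97e-17, edgeR). sia1.L, a homeobox gene that maternal Wnt signals switch on, stood at 3.97 and 2.1 TPM, 0 and 0, and 21.5 and 20.0 TPM. gsc.S, a repressor of the organizer, stood at 4.12 and 6.33 TPM with cycloheximide against 0 and 0.234 TPM with triptolide, and 14.0 TPM in each DMSO library. chrd.1.S, which encodes the BMP antagonist chordin, reached only 0.443 and 0.841 TPM, against 0.029 and 0 TPM with triptolide and 16.1 and 18.0 TPM with DMSO, and its copy chrd.1.L was not called at 0.072 and 0.173 TPM. otx2.L, a head homeobox gene, was higher with cycloheximide, at 10.4 and 9.13 TPM, than with DMSO, at 2.43 and 3.15 TPM, and stood at 0.043 and 0 TPM with triptolide. otx2.S stood at 9.29 and 9.78 TPM with cycloheximide, against 2.09 and 2.91 TPM with triptolide and 2.23 and 2.81 TPM with DMSO (log2 difference from triptolide 1.76 ± 0.225, SE; adjusted p = 8.28e-09, edgeR).

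Ectodermal and neural genes included some of the higher levels with cycloheximide. sox2.L, a pluripotency and neural factor, stood at 38.6 and 48.8 TPM with cycloheximide, 5.19 and 4.69 TPM with triptolide and 10.3 and 9.88 TPM with DMSO, a log2 difference from triptolide of 2.97 ± 0.249 (SE; adjusted p = 2.92e-14, edgeR). hes4.L stood at 40.9 and 39.0 TPM against 6.93 and 6.50 TPM, and hes2.L at 35.0 and 31.0 TPM against 5.36 and 7.41 TPM, with 15.2 and 12.9 TPM and 11.5 and 14.5 TPM with DMSO. All 3 were also detected at stages 5 and 8, with hes2.L at 42.3 and 42.1 TPM at stage 8. zic1.S, a neural plate factor absent with triptolide in one library and at 0.086 TPM in the other, stood at 19.5 and 23.1 TPM with cycloheximide and 17.5 and 20.5 TPM with DMSO. foxi4.2.S stood at 17.5 and 19.4 TPM, 0.064 and 0.120 TPM, and 108 and 112 TPM with cycloheximide, triptolide and DMSO. Of the 45 members higher in exons, 24 lay above DMSO, 14 below and 7 overlapped, and nothing is read from this beside the 496 of 1035 above.

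Of 7 tested dlc, dll1, jag1 and jag2 copies, which encode Notch ligands, 3 were higher in exons, jag1.L in introns alone, and 3 were not called, with exon log2 differences of -0.01 (jag1.S), 0.32 (jag2.L) and 0.84 (jag2.S). The genes dlc.L, dll1.L and dll1.S stood at 19.0 and 21.0, 25.6 and 31.1, and 27.0 and 25.3 TPM with cycloheximide. The same 3 genes stood at or under 0.183 TPM in each triptolide library and at 6.60 to 10.9 TPM with DMSO, so all 3 lay above DMSO. Log2 differences from triptolide were 8.25 ± 0.358, 8.20 ± 0.356 and 7.15 ± 0.296 (SE; largest adjusted p = 8.33e-25, edgeR). Of 34 tested hes genes, counting esr-5.L, 24 were higher in exons, 1 in introns alone, 9 were not called and none was lower, with cycloheximide means of 0.395 to 39.9 TPM. Of the 24, 13 lay above DMSO, 6 below and 5 overlapped, beside 496, 366 and 173 of all 1035 genes higher in exons, so nothing is read from the 13. hes7.1.L was among those below, at 11.1 and 13 TPM against 106 and 110 TPM. Copies of the hes5 cluster, and those of bix, nodal and ventx, resemble one another closely, so counts can be split between them.

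Genes of a list of maternal pluripotency factors and their relatives were seen mainly in introns. Of 58 tested members of that list 25 were higher (43.1%, beside 14.2% of all genes), 4 in exons and 21 in introns alone. The 14.2% is not a like baseline, since 45 of the 58 had an intron entry, against 35.9% of all genes tested. Of all introns 33.8% were higher. pou5f3.2.S, an OCT4 homolog, stood at 18 and 16 TPM with cycloheximide, 2.65 and 3.48 TPM with triptolide and 124 and 130 TPM with DMSO, a log2 difference from triptolide of 2.31 ± 0.174 (SE; adjusted p = 6.38e-16, edgeR). The introns of pou5f3.3.L, a second OCT4 homolog that the egg supplies, stood at 0.871 and 0.845 RPKM against 0 and 0.088 RPKM, and its exons at 481 and 620 TPM against 592 and 504 TPM. sall3.L, a spalt zinc finger gene, stood at 2.37 and 1.60 TPM against 0.016 and 0.015 TPM, and at 0 and 0.017 TPM at stage 5. sox3.L, a SoxB1 factor with no intron entry, was not called at 471 and 530 TPM against 487 and 420 TPM.

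Introns showed transcription of genes whose mRNA came with the egg. Among genes called in introns alone with at least 1 RPKM, the 10 largest differences ran from 7.09 to 9.42 on the log2 scale (largest adjusted p = 5.12e-07, edgeR), while their exon differences ran from -0.17 to 1.37. The introns of arl4a.S, a small GTPase, stood at 2.35 and 2.77 RPKM with cycloheximide and at 0 in both triptolide libraries, at least 46.0-fold higher. Its exons stood at 60.6 and 46.0 TPM with cycloheximide, 24.8 and 24.1 TPM with triptolide and 95.2 and 94.5 TPM at stage 5. The introns of dact1.L, a modulator of Wnt signals, stood at 1.60 and 1.43 RPKM against 0 and 0, with 210 and 204 TPM in exons against 210 and 203 TPM. Others were bambi.L, rnd1.S, fgfr4.L, gfpt1.S, cbx3.L, sox15.L and XB5854344.S, provisionally nufip2.

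Housekeeping lists were also called mainly in introns. Of 78 RNA polymerase II and splicing genes with an intron entry 39 were higher in introns, and of 18 ribonucleotide reductase, antizyme and polyamine genes 12 were, beside 33.8% of all introns. The introns of hnrnpab.L, an RNA binding protein, stood at 1.57 and 1.1 RPKM against 0.046 and 0.050 RPKM, with DMSO at 16.9 and 18.4 RPKM. Those of rrm2.2.L, a ribonucleotide reductase subunit, stood at 1.81 and 1.56 RPKM against 0.018 and 0.026 RPKM, with DMSO at 1.74 and 1.56 RPKM. Of 164 ribosomal protein and translation factor genes, 156 had an intron entry. Of the 164, 29 were higher (17.7%, beside 14.2% of all genes), 28 in introns alone. These 28 are a smaller share of the 156 than the 33.8% of all introns. The median intron difference of the list was 0.84, under the 1.31 of all introns. eef1a1o.S, an elongation factor gene, stood at 4.02 and 3.33 RPKM against 0.068 and 0.064 RPKM, and at 37.9 and 42.3 RPKM with DMSO. The one called in exons, eif4a2.L, a helicase of translation initiation, stood at 1.17 and 2.01 TPM against 0.115 and 0.323 TPM. Of 41 mRNA decay and translation control genes with an intron entry 14 were higher in introns, a share near the 33.8% of all introns, among them pum2.L at 0.175 and 0.150 RPKM against 0.026 and 0.034 RPKM.

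Of 101 tested cell cycle genes 38 were higher, 8 in exons and 30 in introns alone. Of the 101, 84 had an intron entry, against 35.9% of all genes tested, and 33.8% of all introns were higher. So nothing is read from the 37.6% higher beside the 14.2% of all genes. As over all genes, more were called in introns than in exons. The 8 called in exons were the 5 gadd45 copies, both cdc25b copies and cdkn1a.S. gadd45a.L stood at 27.4 and 40.0 TPM with cycloheximide, 1.87 and 1.75 TPM with triptolide and 40.9 and 49.8 TPM with DMSO, a log2 difference from triptolide of 4.04 ± 0.223 (SE; adjusted p = 9.5e-21, edgeR). The introns of cdk9.L, the kinase that releases RNA polymerase II into elongation, stood at 3.65 and 4.79 RPKM against 0 and 0.106 RPKM, and at 42.3 and 43.9 RPKM with DMSO. Of 57 genes of the p53 pathway, heat shock and the unfolded protein response, 41 had an intron entry. Of the 57, 18 were higher (31.6%, beside 14.2% of all genes), 14 in introns alone and 4 in exons. Since 33.8% of all introns were higher, nothing is read from the 31.6%. The 4 called in exons were both pdk4 copies, a pyruvate dehydrogenase kinase, atf3.S, a stress-induced factor, and cdkn1a.S, a kinase inhibitor. pdk4.S stood at 3.06 and 2.60 TPM against 0.524 and 0.458 TPM, and at 24.5 and 26.8 TPM with DMSO. Among 47 genes of germ plasm and oocyte, 9 were higher (19.1%, near the 14.2% of all genes), with otx1.S alone in exons, at 0.638 and 1.06 TPM against 0.193 and 0.181 TPM. The otx1.S call was lost without cycloheximide replicate 2, at a log2 difference of 1.57 (adjusted p = 0.0566, edgeR).

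Immediate early genes, which mammalian cells induce without new protein, were called higher in 35 of 83 cases (42.2%, beside 14.2% of all genes), 16 of them in exons. Of the 83, 41 had an intron entry, against 35.9% of all genes tested. nfkbia.L, the inhibitor of NF-kappaB, stood at 35.9 and 35.8 TPM with cycloheximide, 10.7 and 10.0 TPM with triptolide, 12.8 and 10.4 TPM with DMSO, and 65.9 and 68.6 TPM at stage 5. Its exon difference was 1.63 ± 0.131 on the log2 scale (SE; adjusted p = 5.39e-15, edgeR), and its introns, at 0 and 0.101 RPKM against 0 and 0, were not called (adjusted p = 0.213, edgeR). ier2.L stood at 23.4 and 28.9 TPM against 4.75 and 4.71 TPM, also without a call in introns (adjusted p = 0.364, edgeR). dusp1.L, a MAP kinase phosphatase, stood at 14.1 and 17.4 TPM against 4.28 and 5.5 TPM, with a log2 difference of 1.52 ± 0.211 (SE; adjusted p = 7.37e-08, edgeR) just past the size needed. The dusp1.L difference was 1.35 without cycloheximide replicate 2 and 1.38 without triptolide replicate 1, both under it. sgk1.L, a kinase, stood at 8.94 and 6.88 TPM against 0.161 and 0.151 TPM, with introns called as well. nfkbia.L, ier2.L and dusp1.L were maternal RNAs, and the part of remaining maternal RNA in their exon levels was not tested. Of the 16 called in exons, 8 stood at 1 TPM or more at stage 5, beside 102 of all 1035 genes higher in exons.

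The genes that were lower with cycloheximide were led by histones. Core histones package DNA, and most of their genes make short transcripts without introns. Of 34 tested members of the histone list 8 were lower, 7 of them in exons, against 0.496% of all genes, and 10 were higher, all in introns. h4c1.L stood at 75.6 and 103 TPM with cycloheximide, 643 and 572 TPM with triptolide and 791 and 718 TPM with DMSO, a log2 difference from triptolide of -2.93 ± 0.215 (SE; adjusted p = 2.57e-16, edgeR). h3c8.S stood at 35.5 and 40.0 TPM, 211 and 174 TPM, and 216 and 233 TPM in the same order (log2 difference -2.51 ± 0.13, SE; adjusted p = 8.84e-22, edgeR). h4c4.L stood at 32.4 and 48.7 TPM against 169 and 160 TPM with triptolide, and h2ac14.L at 46.1 and 47.8 TPM against 198 and 171 TPM. The most abundant, h2bc11.S, stood at 7742 and 6479 TPM against 19079 and 17881 TPM with triptolide and 19578 and 20253 TPM with DMSO. h2ax.lS stood at 4145 and 4626 TPM against 14388 and 13059 TPM, and h3c14.L at 3397 and 4013 TPM against 10190 and 9124 TPM. In all 7, both cycloheximide libraries lay below every triptolide and DMSO library. The 7 were chosen for being low with cycloheximide, so nothing is read from this order. The calls of h3c14.L and h2bc11.S, at -1.54 each, were near the size needed. h3c14.L was at -1.40 without cycloheximide replicate 1 and -1.43 without triptolide replicate 1, and h2bc11.S at -1.43 without cycloheximide replicate 2 and -1.46 without triptolide replicate 1. Histone genes come in near-identical copies, among which reads can be split.

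Other histone genes, and the gene of a histone mRNA binding protein, were called in introns. The introns of h2az1.L, a replication-independent variant, stood at 1.68 and 2.31 RPKM with cycloheximide against 0.071 and 0.050 RPKM with triptolide, while its exons stood at 517 and 567 TPM against 558 and 608 TPM. Both slbp copies, which encode the protein that binds the end of histone mRNA, were higher in introns, slbp.S at 1.99 and 1.64 RPKM against 0.031 and 0.017 RPKM. h1-8.S, the linker histone of the egg, was lower in introns, at 0.015 and 0.037 RPKM against 0.096 and 0.193 RPKM. h3c14.L was lower in exons and higher in introns, at 10.8 and 15.2 RPKM against 0 and 0 in introns, 1 of 3 genes with both calls.

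Beyond these, the lower genes were mostly short and without a symbol. Of the 104 genes lower in exons, 83 carry no symbol (79.8%, against 31.8% of all genes tested). Their median exon length was 809 bases against 2831 bases over all genes tested, 37.5% were under 600 bases against 4.92%, and 9 had an intron entry. At stage 5, 76 of the 104 stood at 1 TPM or more. Both cycloheximide libraries lay below both DMSO libraries in 97 and above in none, beside 11.6% below and 40.3% above over all genes tested. The 104 genes were chosen for being low in the cycloheximide libraries, so nothing is read from the 97. gene35176, chosen after its values were seen as the most abundant without a symbol, stood at 2484 and 3031 TPM with cycloheximide, 13235 and 11786 TPM with triptolide and 14646 and 13840 TPM with DMSO.

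**Figure D4:**
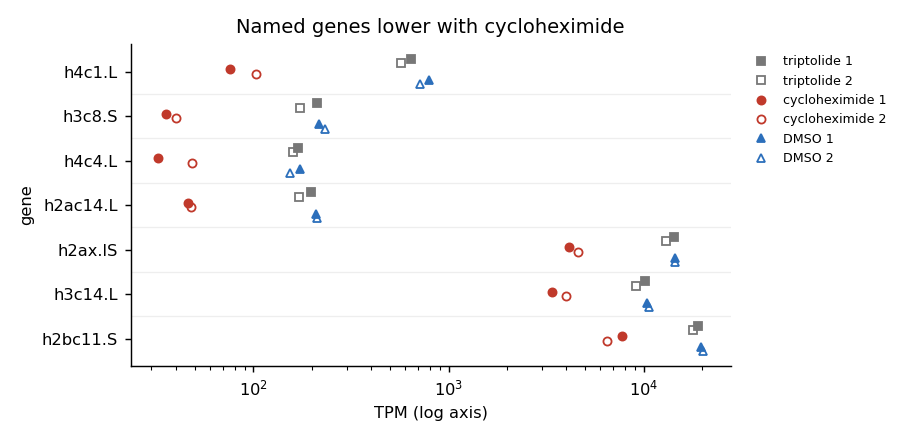
TPM (log axis) of the 7 genes with a symbol and at least 5 TPM with triptolide that were lower in exons with cycloheximide, all histones. Each marker is 1 library: gray squares triptolide, red circles cycloheximide, blue triangles DMSO, filled for replicate 1 and open for replicate 2. Cycloheximide lies left of both other groups in every gene, from 32.4 TPM (h4c4.L) to 7742 TPM (h2bc11.S).

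Copies of both subgenomes were called at similar shares. Xenopus laevis carries homeologs on an L and an S subgenome from an ancient hybridization. In exons, 378 L copies (3.56% of those tested) and 276 S copies (3.48%) were higher with cycloheximide. Of 6174 pairs with both copies tested, 385 had a copy higher in exons, 151 of them both copies, 140 the L copy alone and 94 the S copy alone. A copy called alone was not tested for a difference from its partner. Of the 385 pairs, the L copy had the higher TPM in both cycloheximide libraries in 179 and the S copy in 150, and the gap was at least 4 times in 55 and 34. hes3 was one of the unequal pairs, with means of 21.7 TPM for hes3.L and 1.17 TPM for hes3.S. pou5f3.2 was another, its S copy called in exons and its L copy, at 70.2 and 82.7 TPM against 52.9 and 46.6 TPM, in introns alone.

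Maternal RNAs that decline by stage 9 stood higher with cycloheximide than with triptolide. Of 13572 genes with at least 10 TPM in both stage 5 libraries, 835 had fallen to 50% of stage 5 or less in both DMSO libraries of collection B, a choice that used neither drug. Among these, 384 were higher in exons with cycloheximide than with triptolide by edgeR's adjusted p alone and 10 were lower, beside 8.48% and 5.11% of all genes tested. Of the 12737 others at that stage 5 level, 640 were higher and 1219 lower. The median exon difference of the 835 genes was 0.40 on the log2 scale, against -0.08 for the 12737 others. Called higher in exons were 7 of the 835 and 8 of the 12737 others, beside 3.75% of all genes tested. cdk1.S, the mitotic kinase, stood at 237 and 288 TPM with cycloheximide, 121 and 120 TPM with triptolide, 111 and 110 TPM with DMSO and 321 and 324 TPM at stage 5, a log2 difference of 0.96 ± 0.0916 between the drugs (SE; adjusted p = 1.68e-12, edgeR). aurka.L, another mitotic kinase, stood at 292 and 396 TPM with cycloheximide, 190 and 165 TPM with triptolide and 155 and 153 TPM with DMSO. btg4.L, an adaptor of maternal mRNA decay, stood at 374 and 258 TPM against 183 and 235 TPM with triptolide. These genes were named after their values were seen. The 50% rule sets collection B against the stage 5 libraries of other embryos, without COX2 and COX3 transcripts. How far this moved genes across the rule was not tested. In collections C and D against triptolide of collection A the same 835 genes had a median difference of 0.43 and the others of -0.03.

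Libraries that share no sample with collection B gave a further look at the genes called with cycloheximide. The mean of the 4 cycloheximide libraries with GFP morpholino of collections C and D was set against the 2 triptolide libraries of collection A, in which collection, morpholino and treatment cannot be told apart. In exons, 1726 genes were higher (6.25%) and 943 lower (3.42%), and in introns 1775 were higher (17.9%) and 499 lower (5.03%). Of the 1035 genes higher in exons in collection B, 626 were also called higher there (60.5% of these and 36.3% of those called there), 10 were called lower and 965 had the same sign. Of the 3355 introns higher in collection B, 1656 were also called (49.4% of these and 93.3% of those called there). Of the 104 genes lower in exons, 43 were also called lower (41.3%) and 3 were called higher. All 15 of the largest exon rises and all 10 of the largest intron rises were called higher there, and 4 of the 7 histones lower. h4c1.L stood at 230 and 259 TPM in collection C and 14.7 and 56.1 TPM in collection D, against 586 and 549 TPM with triptolide in collection A, so collections C and D did not overlap. sox2.L stood at 39.3 and 40.7 TPM in collection C and 40.5 and 31.0 TPM in collection D, against 1.62 and 0.830 TPM. hes2.L stood at 21.4 and 27.7 TPM and at 29.8 and 23.2 TPM, against 17.5 and 14.9 TPM. At a log2 difference of 0.57 it was not called in exons there, while its introns were called, at 4.65. mcidas.L, without a count in either DMSO library of collection B, stood at 3.35 and 7.23 TPM and 3.51 and 3.31 TPM, against 0.064 and 0 TPM.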

How the data were processed

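Strand-specific read pairs came from total RNA of whole embryos after removal of ribosomal RNA. Before deposit, the authors used HISAT2 (2.2.1 in the submitters' processing notes, another version in the paper) and the v9.2 genome of X. laevis, and counted pairs over exons and over introns in featureCounts 2.0.1. The deposited TPM come from exon counts and lengths, and the deposited RPKM from intron counts per kilobase and 1e6 exon counts. Here, 1 fit over 53 libraries, all but those of collection H, held 27602 exon entries (0.5 counts per 1e6 or more in a library) and 9916 intron entries (over 10 counts and 0.25 RPKM or more in a library), using edgeR 4.0.16 in R 4.3.3 with TMM scaling and its quasi-likelihood test, Benjamini-Hochberg adjusted over both kinds of entry. Standard errors divide the log2 difference by the root of the F statistic. DESeq2 1.42.0 was an alternative. Genes without TPM in the count file (1485) were left out and hold 0.257% to 0.885% of exon counts in collection B. Floors cover counting error only.

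The comparison, gene lists and naming rule were chosen with earlier results of these data known. Named were the 15 largest exon rises and 12 largest exon falls (7 existed) with a symbol and at least 5 TPM in the higher group, the 10 largest rises in introns alone with at least 1 RPKM, and in each list the 3 called members with the highest TPM and up to 3 lower ones. Others were named as members of these lists or after their values were seen. No identifier was matched to mir-427, which is not analysed here. Of the genes this rule names, 2 are not reported here. The fit was tested on simulated data.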

Additional observations from a re-analysis of the deposited data

How the results depend on the processing

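Genes higher numbered 3929 and genes lower 137, and 12 alternatives for collection B were planned and 2 added after seeing the data. Under size factors of DESeq2, TMM of exon entries alone, the test of DESeq2 and the legacy quasi-likelihood form, 3932, 3954, 3837 and 4061 genes were higher and 132, 128, 107 and 140 lower. Without a filter on low counts 5563 genes were higher and 187 lower, with 5130 introns higher and 80 lower in place of 3355 and 36, since more introns were tested. In fits of fewer samples, 3353 genes were higher and 95 lower with the 4 libraries alone. With the 6 libraries of collection B, 3573 were higher and 92 lower. Of the 1035 exons higher, 845 and 873 remained, and introns lower fell to 9 and 10. The adjusted p of the gadd45g.L exons was 2.83e-07 with the 4 libraries alone (edgeR). Same-numbered cycloheximide and triptolide libraries deviated from their group means in opposite directions (r = -0.508 over 15718 entries), so numbers do not pair samples. The deviations of the 2 groups were therefore not unrelated, and their source was not tested. With a replicate block, 3262 genes were higher and 85 lower, with 8 introns lower, and with crossed numbers 3562 were higher and 90 lower, with 9 introns lower.

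Leaving out 1 of the 4 libraries, in fits where the lone library is assumed to vary like other groups, gave 3396 to 3761 genes higher, 124 to 176 lower, 850 to 964 exons higher, 97 to 137 exons lower, 2893 to 3228 introns higher and 17 to 42 introns lower, the 17 without triptolide replicate 2. Of the 1035 exons higher, 778 to 869 remained. For collections C and D against A, leaving out 1 library gave 2605 to 3049 genes higher and 1109 to 1389 lower. A fit without mitochondrial and histone genes moved the exon median by -0.13 on the log2 scale, and 3838 genes were higher and 170 lower. Of the genes picked by the naming rule, 103 exon or intron entries were followed, 93 in the fit without mitochondrial and histone genes. None of these entries changed sign in any alternative. For genes named outside the rule, values in the alternatives are not given. Besides the calls given above, the intron call of sox17b.1.L was lost in 5 alternatives (log2 difference 2.83 to 5.53, adjusted p = 0.073 to 0.446, edgeR) and that of dusp1.L in 4 (2.31 to 3.4, adjusted p = 0.0572 to 0.36, edgeR), otx1.S was also lost with the block (adjusted p = 0.0517, edgeR), and h3c14.L and h2bc11.S stood at -1.47 in the fit of the 6 libraries and with either block. In exons dusp1.L was also under the size needed without a filter (1.43) and without mitochondrial and histone genes (1.39). Genes under about 1 TPM rest on few counts, and their fold changes are the least certain.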
